A study of Mus musculus with 2 samples.

Results

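Semaphorins, their neuropilin and plexin receptors, and the ephrins with their Eph receptors were measured in whole-layer mouse back skin with and without stretch. The members are the genes whose symbols name class 3 to 7 semaphorins, plexins A to D, neuropilins 1 and 2, ephrins or Eph receptors and that exceeded 3 counts in 1 library or both. Of 54 matching symbols, 51 met this minimum, among 24421 symbols in the table and 16255 above the same minimum. The members comprised 20 semaphorins, 2 neuropilins, 9 plexins, 8 ephrins, 11 Eph receptors and Plxna4os1, an antisense transcript. The other matching symbols were Epha5 with 0 counts in control and 2 in stretched skin, Epha6 with 1 and 0, and Epha8 with 1 and 1.

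One library came from non-stretched skin at day 5 (control skin) and 1 from skin under 33% strain for 5 days per the labels (stretched skin), both of wild-type C57BL6/J mice. The study's methods describe a device whose strain was raised each day from its initial value, female mice of 8 weeks with hair follicles in telogen, the resting phase, but do not say how many animals went into each library. With 1 library per condition no difference has a replicate check and no p-value is given. Values compare these libraries and not the conditions.

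Semaphorins are secreted or membrane-bound cues that steer axons, vessels and migrating cells. Class 3 semaphorins mostly act through a neuropilin, which binds the ligand, and a plexin, which signals, whereas most membrane-bound classes bind plexins directly. Eph receptors are the largest family of receptor tyrosine kinases and bind ephrins on neighbouring cells. Ephrin-A ligands are held by a lipid anchor and mainly bind EphA receptors, and ephrin-B ligands span the membrane and mainly bind EphB receptors. In skin, both systems act in nerve and vessel patterning, and Eph signalling also takes part in keratinocyte differentiation and adhesion.

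The control library held 14152379 counts and the stretched library 11648655, so that 3 counts correspond to 0.212 and 0.258 CPM (the count divided by the library total and scaled to 1e+06). The log2 ratio of CPM, stretched over control, carries an exact 95% Clopper-Pearson interval that covers counting error only. Reads are not independent molecules, since no molecular identifiers were used. Levels between genes are compared as FPKM (the CPM divided by the exon length in kilobases). The median log2 ratio of all 16255 genes was -0.12, and the TMM factors of edgeR would add 0.10 to every log2 ratio. In bulk skin, fewer cells of a type and less RNA per cell cannot be told apart.

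More of the guidance genes were lower than higher in stretched skin. The interval lay wholly below 0 for 28 of the 51 members (54.9%), against 33.5% of all 16255 genes. It lay wholly above 0 for 8 members (15.7%), against 18.1% of all genes, and included 0 for 15. With the median of ratios of DESeq2 as the scaling, 21 (41.2%) lay below and 10 (19.6%) above, against 23.5% and 24.7% of all genes. The median log2 ratio of the members was -0.25, beside -0.12 for all genes. Because deeper genes have narrower intervals, the shares were also taken over genes with 100 or more counts in total. Of 46 such members, 28 (60.9%) lay below 0 and 7 (15.2%) above, against 40.2% and 20% of 12740 genes. A log2 ratio of -0.5 or lower was found for 21 members (41.2%) and for 17.7% of all genes, and the summed level of all members was 3151 CPM in control and 2491 CPM in stretched skin.

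The lower values were spread unevenly over the 2 systems. Of 19 Eph receptors and ephrins, 14 (73.7%) lay below 0 and 1 (5.26%) above, with a median log2 ratio of -0.59. Of 31 semaphorins, neuropilins and plexins, 14 (45.2%) lay below 0 and 7 (22.6%) above. Their median was -0.12, the same as that of all genes to 2 decimals. A log2 ratio of -0.5 or lower was found for 8 of the 31 (25.8%) and 13 of the 19 (68.4%), against 17.7% of all genes. With the median of ratios of DESeq2, 12 of the 19 (63.2%) and 9 of the 31 (29.0%) lay below 0, against 23.5% of all genes. Eph receptors and ephrins held 52.5% of the summed FPKM of the members in control skin and 46.1% in stretched skin, whereas semaphorins held 24.0% and 29.2%, although their own summed FPKM was 132 in control and 126 in stretched skin. No member met a second rule that also asks for level, in which the FPKM values, with 1 added to each, have a product above 10 and a ratio of at least 2 or at most 0.5. The filter on the product left 36 members, and 2.61% of the 10908 genes it left were upregulated and 2.43% downregulated. This result rests on the added constant, because with 0.1 in place of 1 Sema4g and Epha4 were downregulated, beside 2.81% of the 9819 genes then left by the filter.

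**Figure D1:**
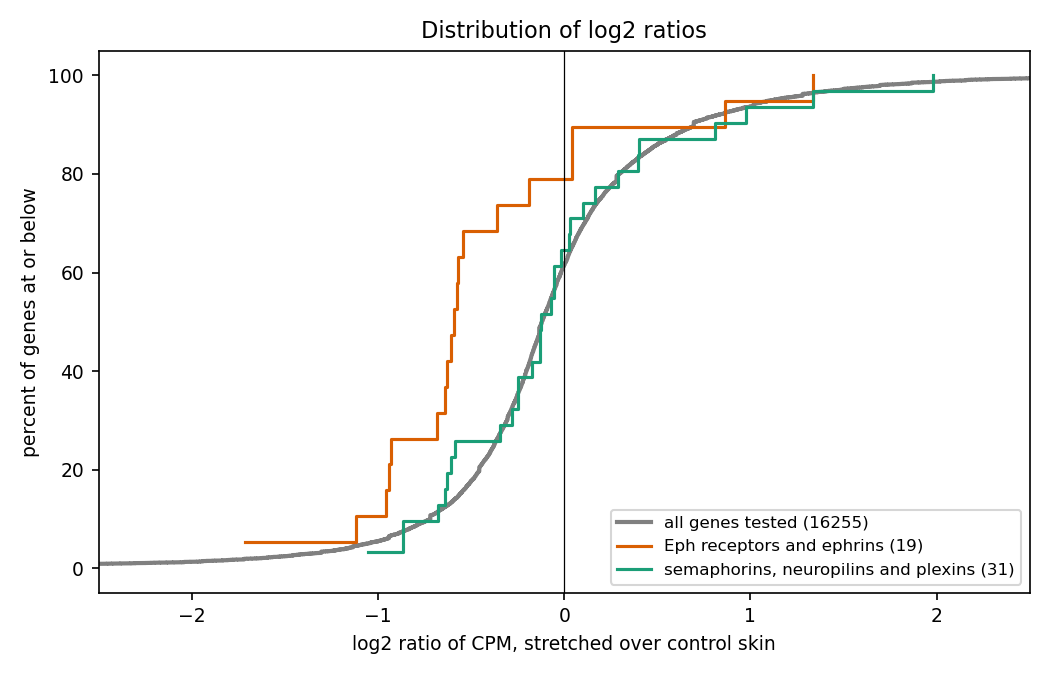
Cumulative percent of genes (vertical axis) at or below each log2 ratio of CPM, stretched over control skin (horizontal axis), for all 16255 genes, 19 Eph receptors and ephrins, and 31 semaphorins, neuropilins and plexins. From -1 up to 0 the Eph and ephrin line lies left of the line of all genes, and the semaphorin and plexin line runs closer to it. The axis ends at -2.5, below which no member lies.

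Promoter sequences of 6 members are shown first, taken from members low and members high in stretched skin. Efna4 and Efna5 are ephrins, Epha4 and Ephb1 are the Eph receptors with the most negative log2 ratios among members above 3 counts in both libraries, and Epha3 and Sema4f are among the most positive. Each run is the 250 bases before the RefSeq transcription start on GRCm38.p6, written 5′ to 3′ on the gene's strand. Capitals mark the Sp1 box, searched as GGGCGG on both strands and so also written CCGCCC.
Efna4, chr3:89338029-89338278, minus strand: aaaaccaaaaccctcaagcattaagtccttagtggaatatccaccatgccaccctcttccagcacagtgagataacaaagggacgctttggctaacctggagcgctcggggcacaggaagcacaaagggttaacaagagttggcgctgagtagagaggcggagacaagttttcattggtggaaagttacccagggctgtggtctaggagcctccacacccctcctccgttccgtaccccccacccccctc
Efna5, chr17:62881318-62881567, minus strand: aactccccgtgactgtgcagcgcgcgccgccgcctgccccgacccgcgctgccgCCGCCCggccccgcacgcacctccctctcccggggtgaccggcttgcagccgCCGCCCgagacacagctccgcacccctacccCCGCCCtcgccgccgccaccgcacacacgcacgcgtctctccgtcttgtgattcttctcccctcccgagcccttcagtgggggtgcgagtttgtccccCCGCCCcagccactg
Epha4, chr1:77515089-77515338, minus strand: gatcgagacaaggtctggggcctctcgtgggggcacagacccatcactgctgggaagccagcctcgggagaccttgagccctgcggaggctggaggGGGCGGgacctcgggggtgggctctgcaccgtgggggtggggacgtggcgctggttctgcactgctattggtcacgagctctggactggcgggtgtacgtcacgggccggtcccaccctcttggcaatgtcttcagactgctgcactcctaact
Ephb1, chr9:102354694-102354943, minus strand: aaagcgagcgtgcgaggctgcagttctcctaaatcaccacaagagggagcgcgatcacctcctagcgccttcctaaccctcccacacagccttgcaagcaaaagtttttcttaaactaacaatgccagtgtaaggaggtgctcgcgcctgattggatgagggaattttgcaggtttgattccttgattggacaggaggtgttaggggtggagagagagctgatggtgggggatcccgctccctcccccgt
Epha3, chr16:63864176-63864425, minus strand: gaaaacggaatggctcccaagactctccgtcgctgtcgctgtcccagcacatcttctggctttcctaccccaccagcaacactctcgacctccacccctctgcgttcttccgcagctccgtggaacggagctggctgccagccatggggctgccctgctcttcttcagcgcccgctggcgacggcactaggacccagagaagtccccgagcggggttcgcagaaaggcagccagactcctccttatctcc
Sema4f, chr6:82939770-82940019, minus strand: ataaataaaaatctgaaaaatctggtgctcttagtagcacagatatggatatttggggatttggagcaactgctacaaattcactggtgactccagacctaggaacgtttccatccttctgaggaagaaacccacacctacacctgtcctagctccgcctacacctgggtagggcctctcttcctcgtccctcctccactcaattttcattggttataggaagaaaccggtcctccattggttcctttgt
The Efna5 window held 4 Sp1 boxes and the Epha4 window 1, and the other 4 windows held none. The GC content was 74.8% for Efna5, 66.0% for Epha4, 62.8% for Epha3, 54.4% for Efna4, 54.0% for Ephb1 and 46.0% for Sema4f. Across the families, 44 of 51 members had a RefSeq window, 58 windows in all, and 43 of these (74.1%) held an Sp1 box, against 32.7% of 32851 windows of the same length. The median GC content was 64.4% in members' windows and 52.4% in all windows. Among members with an interval below 0, 24 of 29 windows (82.8%) held the box, and among those above 0, 4 of 7 (57.1%). Where the interval included 0, 15 of 22 windows (68.2%) held it. Sp1 boxes were thus found in windows of members of either direction, and windows without one included both low and high members. Other motifs were searched on both strands. TATAAA was found in 1 member window, that of Efnb2, and in 12.4% of all windows. The AP-1 site TGANTCA was found in 3 member windows (5.17%) and in 6.75% of all. The LEF/TCF core CTTTGA was found in 3 (5.17%) and 13.8%, and the TEAD core GGAATG in 7 (12.1%) and 12.6%. A match describes these letters only.

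All 8 ephrins were lower in stretched skin, each with an interval below 0, against 33.5% of all genes. With the median of ratios 6 of them lay below 0, against 23.5% of all genes. The 5 ephrin-A ligands had a median log2 ratio of -0.57 and the 3 ephrin-B ligands -0.61. Efna3 was the most abundant ephrin-A, with 1152 counts (33.4 FPKM) in control skin and 639 (22.5 FPKM) in stretched skin, a log2 ratio of -0.57 (interval -0.71 to -0.43). Efna1, the main ligand of EphA2, differed least, with 615 and 444 counts (-0.19, interval -0.37 to -0.011), and its interval included 0 once the TMM factors were applied. Efna2 differed most, from 139 counts to 59 (-0.96, interval -1.42 to -0.51), though on the fewest counts of the ephrin-A ligands. Efna4, whose window without an Sp1 box is printed above, had 284 and 155 counts (-0.59, interval -0.88 to -0.31). Efna5, with 4 boxes, had 727 and 411 (-0.54, interval -0.72 to -0.37), and the intervals of both overlapped.

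Efna1, Efna3 and Efna4 stand side by side on chromosome 3 of GRCm38 on the minus strand. Efna1 spans 89271733 to 89281142, Efna3 spans 89313899 to 89322965 and Efna4 89333390 to 89338028, with gaps of 32.8 kb and 10.4 kb. Efna3 and Efna4 had nearly equal log2 ratios, while the interval of Efna1 did not overlap that of Efna3. Efna3 shares 14.1% of its exonic bases with a transcript on the opposite strand and Efna4 shares 10.5% of its exonic bases with other genes, and without strand these reads cannot be told apart.

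Among the ephrin-B ligands, Efnb1, on the X chromosome from 99136130 to 99148991, was the most abundant. It had 1669 counts (34.2 FPKM) in control and 854 (21.2 FPKM) in stretched skin, a log2 ratio of -0.69 (interval -0.81 to -0.57). Efnb2, which marks arteries and binds EphB4, had 1717 and 947 counts (-0.58, interval -0.69 to -0.46). Efnb3 was low, with 98 and 53 counts (-0.61, interval -1.12 to -0.11), and its interval included 0 with the median of ratios. The 3 intervals overlapped, so their ratios were not distinguished at this depth.

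Of 11 Eph receptors, 6 (54.5%) lay below 0, 1 (9.09%) above and 4 included 0, against 33.5% and 18.1% of all genes below and above, with a median log2 ratio of -0.63. The 6 EphA receptors summed to 4579 counts in control and 2151 in stretched skin, a log2 ratio of -0.81 (interval -0.88 to -0.73), and their share of the members' FPKM was 12.5% and 8.97%. The 5 EphB receptors, summed in the same way, differed less, at -0.34 (interval -0.41 to -0.28).

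Epha1, on chromosome 6 from 42358487 to 42373268, was the most abundant EphA receptor. It had 2189 counts (39.4 FPKM) in control skin and 944 (20.6 FPKM) in stretched skin, a log2 ratio of -0.93 (interval -1.04 to -0.82). Epha2, the receptor of ephrin-A1 in keratinocytes, had 1299 and 690 counts (-0.63, interval -0.77 to -0.50). Epha4, which binds ephrins of both classes and lies on chromosome 1 from 77367185 to 77515088, had 1019 and 387 counts, or 8.94 and 4.12 FPKM (-1.12, interval -1.29 to -0.95). These 3 receptors held nearly all EphA counts in both libraries. Epha1 shares 6.01% of its exonic bases with Zyx on the opposite strand.

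Epha3 differed in the other direction. This receptor, on chromosome 16 from 63543534 to 63864175, had 53 counts (0.431 FPKM) in control skin and 110 (1.09 FPKM) in stretched skin, a log2 ratio of 1.33 (interval 0.85 to 1.84). It was the only Eph receptor or ephrin with an interval above 0, and its level was under those of Epha1, Epha2 and Epha4. Epha7 was scarce, with 12 and 18 counts (0.87, interval -0.27 to 2.05). Epha10, which lacks kinase activity, had 7 counts in control and 2 in stretched skin, at the floor of 3 counts, and its interval included 0.

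The EphB receptors fell into low and level members. Ephb1, on chromosome 9 from 101922128 to 102354693, had the most negative log2 ratio of all members. It had 235 counts (2.37 FPKM) in control and 59 (0.723 FPKM) in stretched skin (-1.71, interval -2.15 to -1.30), which is 3.28-fold lower. Ephb3 had 1500 and 792 counts (-0.64, interval -0.77 to -0.52). Ephb6, a receptor without kinase activity and the second most abundant member in both libraries, had 2180 counts (40.8 FPKM) in control and 1396 (31.8 FPKM) in stretched skin (-0.36, interval -0.46 to -0.26). It lies on chromosome 6 from 41605482 to 41620509, 738 kb from Epha1, whose log2 ratio was lower with no overlap of the intervals.

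Ephb4, the venous receptor of ephrin-B2, had 1196 counts in control and 1013 in stretched skin, or 18.2 and 18.7 FPKM (0.041, interval -0.081 to 0.16). Ephb2 had 264 and 224 counts (0.044, interval -0.22 to 0.31). No difference of Ephb4 or Ephb2 was thus detectable at this depth, and the interval of Ephb4 lay wholly above that of its ligand gene Efnb2. With the TMM factors the interval of Ephb4 lay above 0.

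**Figure D2:**
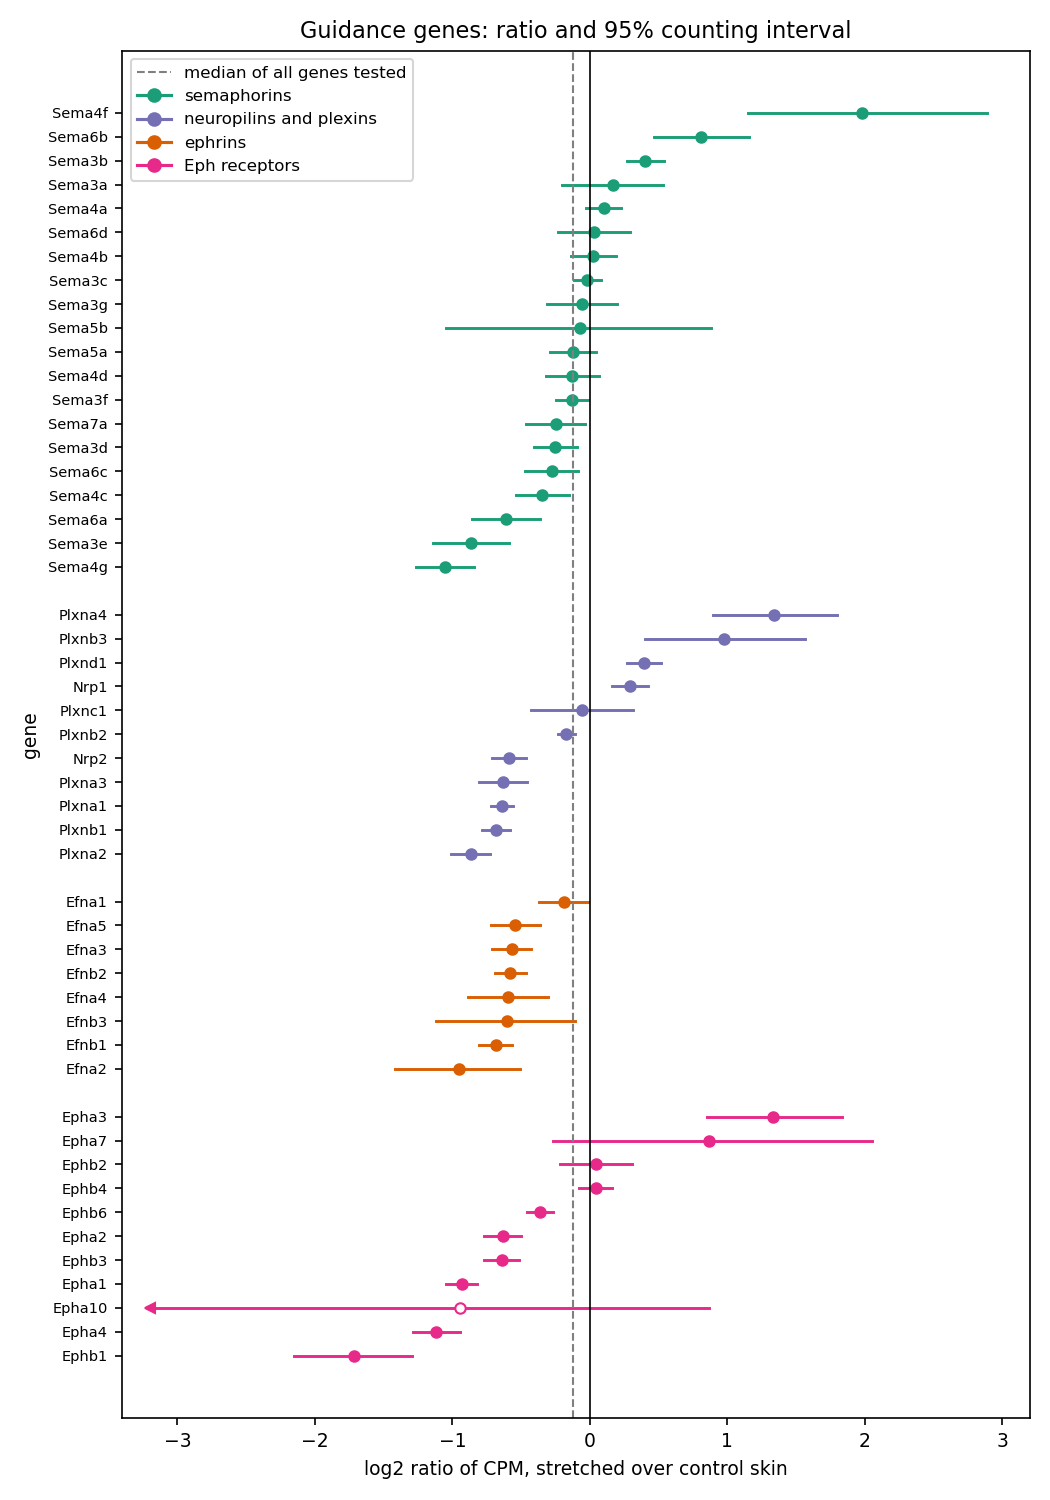
Log2 ratio of CPM, stretched over control skin (horizontal axis), of the 50 protein-coding members, with exact 95% counting intervals as bars, grouped by family from top to bottom. All 8 ephrins lie left of 0, Eph receptors reach from -1.71 for Ephb1 to 1.33 for Epha3, and semaphorins from -1.05 for Sema4g to 1.98 for Sema4f. The open point is Epha10, whose count in stretched skin was set to 3 and whose lower bound runs off the axis.

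The 20 semaphorins spread to both sides, with 8 intervals (40%) below 0, 3 (15%) above and 9 that included 0, beside 33.5% and 18.1% of all genes, and a median log2 ratio of -0.10. With the median of ratios, 4 (20%) lay below 0 and 4 above, as Sema3d, Sema3f, Sema6c and Sema7a no longer lay below 0 and Sema4a lay above. The 7 secreted class 3 genes summed to 5704 counts in control and 4570 in stretched skin, a log2 ratio of -0.039 (interval -0.095 to 0.017), although single genes differed. Sema3c, which guides neural crest and vessel cells, was the most abundant semaphorin, with 1895 counts (18.8 FPKM) in control and 1540 (18.5 FPKM) in stretched skin (log2 ratio -0.018, interval -0.12 to 0.079). Sema3f, a ligand of neuropilin 2, had 1370 and 1030 counts (-0.13, interval -0.25 to -0.013), a value close to the median of all genes. Its neighbour Sema3b, 72.3 kb away on chromosome 9, was higher, with 855 and 930 counts, or 12.6 and 16.7 FPKM (0.40, interval 0.27 to 0.54).

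Sema3e had the most negative value of class 3. This ligand, which binds plexin D1 without a neuropilin, had 358 counts (2.72 FPKM) in control and 162 (1.50 FPKM) in stretched skin, a log2 ratio of -0.86 (interval -1.14 to -0.59). It lies on chromosome 5 with Sema3a and Sema3d, 423 kb from the former. Sema3a, which repels sensory and sympathetic axons, had 131 and 121 counts (0.17, interval -0.20 to 0.53). Sema3d had 802 and 555 counts (-0.25, interval -0.41 to -0.092). The interval of Sema3e overlapped neither of these neighbours. Sema3g, expressed by arterial endothelium, had 293 and 232 counts (-0.056, interval -0.31 to 0.20).

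The membrane-bound class 4 semaphorins held the most extreme values of the family. Sema4f, on chromosome 6 from 82911885 to 82939769, had 16 counts (0.214 FPKM) in control and 52 (0.844 FPKM) in stretched skin, a log2 ratio of 1.98 (interval 1.15 to 2.89). It was the highest log2 ratio of any member, on one of the lowest levels. Sema4g, on chromosome 19 from 44989101 to 45003397, had 675 counts (5.51 FPKM) in control and 268 (2.66 FPKM) in stretched skin (-1.05, interval -1.26 to -0.85). Sema4a, which also acts on immune cells, was the most abundant of class 4, with 1057 and 933 counts (0.10, interval -0.028 to 0.23). Sema4d, the ligand of plexin B1, had 511 and 385 counts (-0.13, interval -0.32 to 0.066), Sema4b had 675 and 565 (0.024, interval -0.14 to 0.19), and Sema4c, a ligand of plexin B2, had 565 and 366 (-0.35, interval -0.54 to -0.15).

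In class 6, whose members bind A-type plexins directly, Sema6a and Sema6b went in opposite directions. Sema6a had 387 counts (3.12 FPKM) in control and 209 (2.04 FPKM) in stretched skin (-0.61, interval -0.86 to -0.36). Sema6b had 120 (2.14 FPKM) and 173 (3.74 FPKM), a log2 ratio of 0.81 (interval 0.46 to 1.16). Sema6c, the most abundant of the class, had 548 and 372 counts (-0.28, interval -0.47 to -0.085), and Sema6d had 263 and 221 (0.030, interval -0.23 to 0.29). The lipid-anchored Sema7a had 443 and 307 counts (-0.25, interval -0.46 to -0.035). In class 5, Sema5a had 684 and 517 counts (-0.12, interval -0.29 to 0.044) and Sema5b only 23 and 18.

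The receptors of the semaphorins also divided. Nrp1, which is a co-receptor for VEGF-A as well, had 947 counts (6.84 FPKM) in control and 954 (8.37 FPKM) in stretched skin, a log2 ratio of 0.29 (interval 0.16 to 0.42). Nrp2, which also binds VEGF-C in lymphatic vessels, had 1501 (8.96 FPKM) and 823 (5.97 FPKM), a log2 ratio of -0.59 (interval -0.71 to -0.46). Per length, Nrp2 was thus above Nrp1 in control skin and below it in stretched skin.

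Of the plexin A genes, which pair with neuropilins, 3 of 4 lay below 0, against 33.5% of all genes. Plxna1, the most abundant, had 3412 counts (26.6 FPKM) in control and 1803 (17.1 FPKM) in stretched skin, a log2 ratio of -0.64 (interval -0.72 to -0.56). Plxna2 had 1328 and 599 counts (-0.87, interval -1.01 to -0.73) and Plxna3 had 772 and 410 (-0.63, interval -0.81 to -0.46). Plxna4 was the exception, with 63 counts (0.316 FPKM) in control and 131 (0.797 FPKM) in stretched skin, a log2 ratio of 1.34 (interval 0.89 to 1.79). Its antisense partner Plxna4os1, at 32511073 to 32515576 on the plus strand of chromosome 6 within the bounds of Plxna4, had 0 and 4 counts. Plxna1 shares 10.7% of its exonic bases with a transcript on the opposite strand.

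Plxnb2 was the most abundant member in both libraries, with 5018 counts (45.9 FPKM) in control and 3667 (40.8 FPKM) in stretched skin. Its log2 ratio was -0.17 (interval -0.23 to -0.11), near the median of all genes. Plxnb1, the receptor of semaphorin 4D, had 2345 and 1205 counts (-0.68, interval -0.78 to -0.58), and Plxnb3 had 42 and 68 (0.98, interval 0.40 to 1.57). Plxnc1, the receptor of semaphorin 7A, had 140 and 111 counts (-0.054, interval -0.43 to 0.32). Plxnd1, an endothelial receptor, had 1003 counts (9.71 FPKM) in control and 1086 (12.8 FPKM) in stretched skin (0.40, interval 0.27 to 0.52).

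Set side by side, ligands and their receptors did not share a direction throughout. Sema3e was at -0.86 where its receptor Plxnd1 was at 0.40, and Efnb2 was at -0.58 where Ephb4 was at 0.041. Sema6a, which binds plexins A2 and A4, was at -0.61 where Plxna2 was at -0.87 and Plxna4 at 1.34, and Sema6b, a ligand of plexin A4, was at 0.81. Sema4d was at -0.13 and its receptor Plxnb1 at -0.68, with intervals that did not overlap. Efna1 was at -0.19 and Epha2 at -0.63, also without overlap. The members that stood above 0 with the largest ratios (Sema4f, Plxna4, Epha3 and Plxnb3) all had under 1 FPKM in control skin. Of the first 10 by FPKM in control skin, 9 were among the first 10 in stretched skin.

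**Figure D3:**
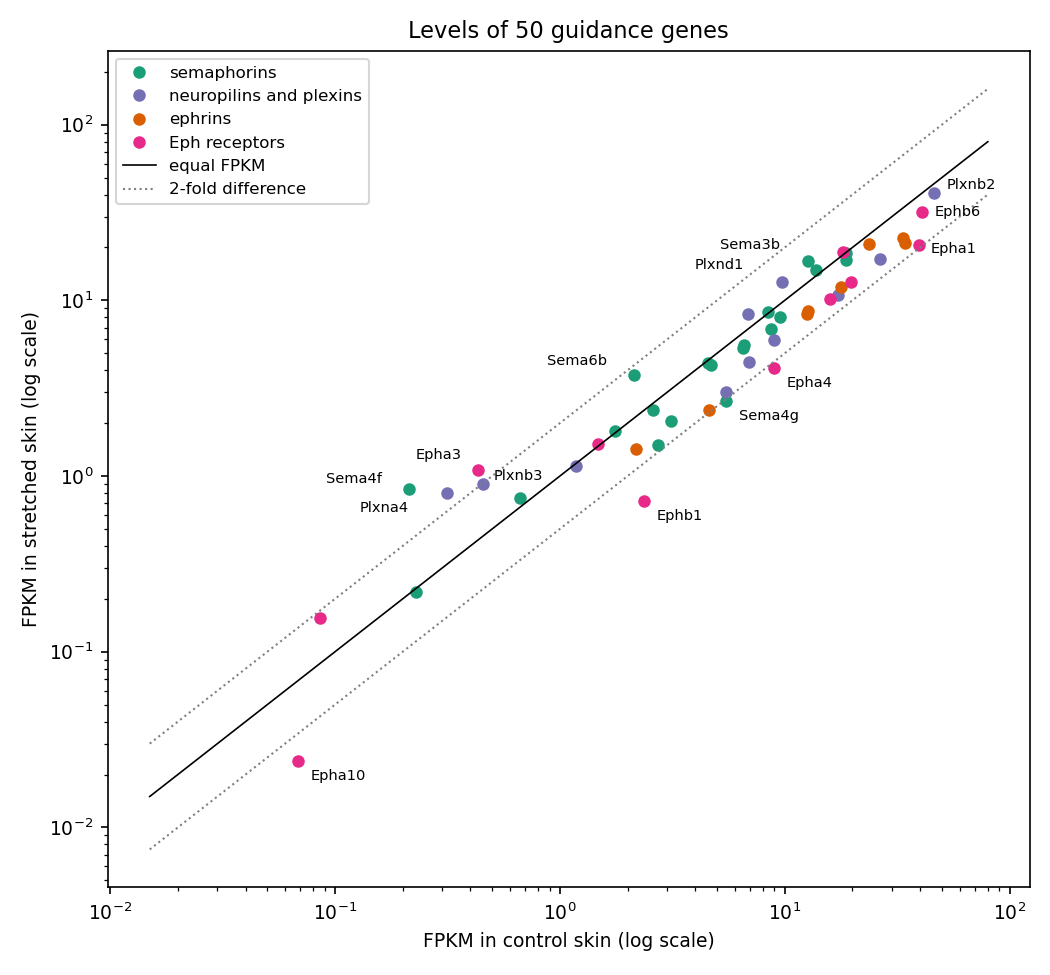
FPKM in stretched skin against FPKM in control skin, both on log scales, for the 50 protein-coding members, with a solid line at equal levels and dotted lines at a 2-fold difference. Plxnb2 and Ephb6 hold the highest levels in both libraries, and Sema4f, Epha3 and Plxna4 lie above the upper dotted line at levels near or under 1 FPKM.

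Genes that act downstream or beside these receptors lay on both sides of 0. Of 28 semaphorin and plexin effectors, 8 intervals (28.6%) lay above 0 and 9 (32.1%) below, against 18.1% and 33.5% of all genes, with a median log2 ratio of 0.014. The largest positive values among those with at least 100 counts were Fes, a tyrosine kinase that signals from plexin A1, with 229 and 451 counts (1.26, interval 1.03 to 1.49), and Dpysl3, of the collapsin response mediators, with 1144 and 1588 (0.75, interval 0.64 to 0.86). The most negative were Mical2, of the family of actin-oxidising enzymes that act under plexins, at -0.73 (interval -0.85 to -0.62), and Farp1 at -0.57 (interval -0.70 to -0.43).

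Of 34 Eph and ephrin effectors, 9 (26.5%) lay above 0 and 17 (50%) below, where 18.1% and 33.5% of all genes did, with a median of -0.16 beside -0.12 for all genes. The highest and lowest values are again given for genes with at least 100 counts. Ngef (ephexin 1), which binds EphA4, had 74 counts in control and 147 in stretched skin (1.27, interval 0.86 to 1.69), and Sdcbp (syntenin), which binds the tails of ephrin-B ligands, had 1911 and 2447 (0.64, interval 0.55 to 0.72). The adaptor Grb7 had 435 and 198 (-0.85, interval -1.10 to -0.61) and the exchange factor Kalrn 442 and 203 (-0.84, interval -1.09 to -0.60). Of 13 measured co-receptors and other binding partners of semaphorins, 5 (38.5%) lay above 0 and 8 (61.5%) below, with a median of -0.33. Trem2 and Tyrobp, which form a myeloid receptor complex that can join plexin A1, had the highest values, 3.84 (interval 3.02 to 4.78) and 1.58 (interval 1.37 to 1.80). Ptk7 and Chl1 had the lowest, -0.61 (interval -0.71 to -0.51) and -0.59 (interval -0.74 to -0.44).

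Markers of the cell types in whole skin also differed between the libraries. For every marker list the reference is all genes, of which 18.1% lay above 0 and 33.5% below. The keratinocyte markers, which identify the tissue, summed to 18266 CPM in control and 18387 CPM in stretched skin, with 5 of 10 above 0 and 4 below. All 12 hair matrix and shaft markers lay below 0, with a median of -4.05 and sums of 1447 and 149 CPM. All 10 adipocyte markers (2961 and 1936 CPM) and all 8 melanocyte markers (479 and 219 CPM) also lay below 0. On the other side were 10 of 10 fibroblast markers (41579 and 77990 CPM), 11 of 12 macrophage markers (794 and 1861 CPM), 9 of 12 blood endothelial markers (352 and 498 CPM) and 4 of 6 measured lymphatic markers (145 and 226 CPM), where Ccl21a was listed at 0. The collagen genes Col1a1, Col1a2 and Col3a1 made up most of the fibroblast sums. They had 11879, 12955 and 14111 CPM in control and 23813, 23677 and 27438 CPM in stretched skin. The log2 ratios of the 10 fibroblast markers ran from 0.056 for Dcn to 1.10 for Fbln1.

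Mixed directions were found for skeletal muscle (5 above and 7 below of 12, 31741 and 23844 CPM), smooth muscle and pericytes (5 and 4 of 10, 2218 and 3104 CPM, or 1133 and 1154 CPM without Des, which is also in the skeletal muscle list) and Schwann cells (3 and 1 of 10, 766 and 842 CPM). T and B cell markers were scarce, with sums of 11.3 and 17.8 CPM and Ms4a1 listed at 0. Of 7 measured, 1 lay above 0, which was Cd4 with 15 and 56 counts (2.18, interval 1.34 to 3.11). The blood endothelial markers had a median log2 ratio of 0.57 and the lymphatic ones 0.68. Of the members that vessels express, Plxnd1 (0.40) and Nrp1 (0.29) lay above 0, Sema3g (-0.056) and Ephb4 (0.041) had intervals that included 0, and Efnb2 (-0.58) and Nrp2 (-0.59) lay below 0, as did Kdr (-0.37, interval -0.59 to -0.15), the main VEGF-A receptor of endothelium. Myeloid cells express Trem2 and Tyrobp, and the macrophage markers had a median of 1.34. The part of these cell types in the values of the guidance genes was not tested.

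**Figure D4:**
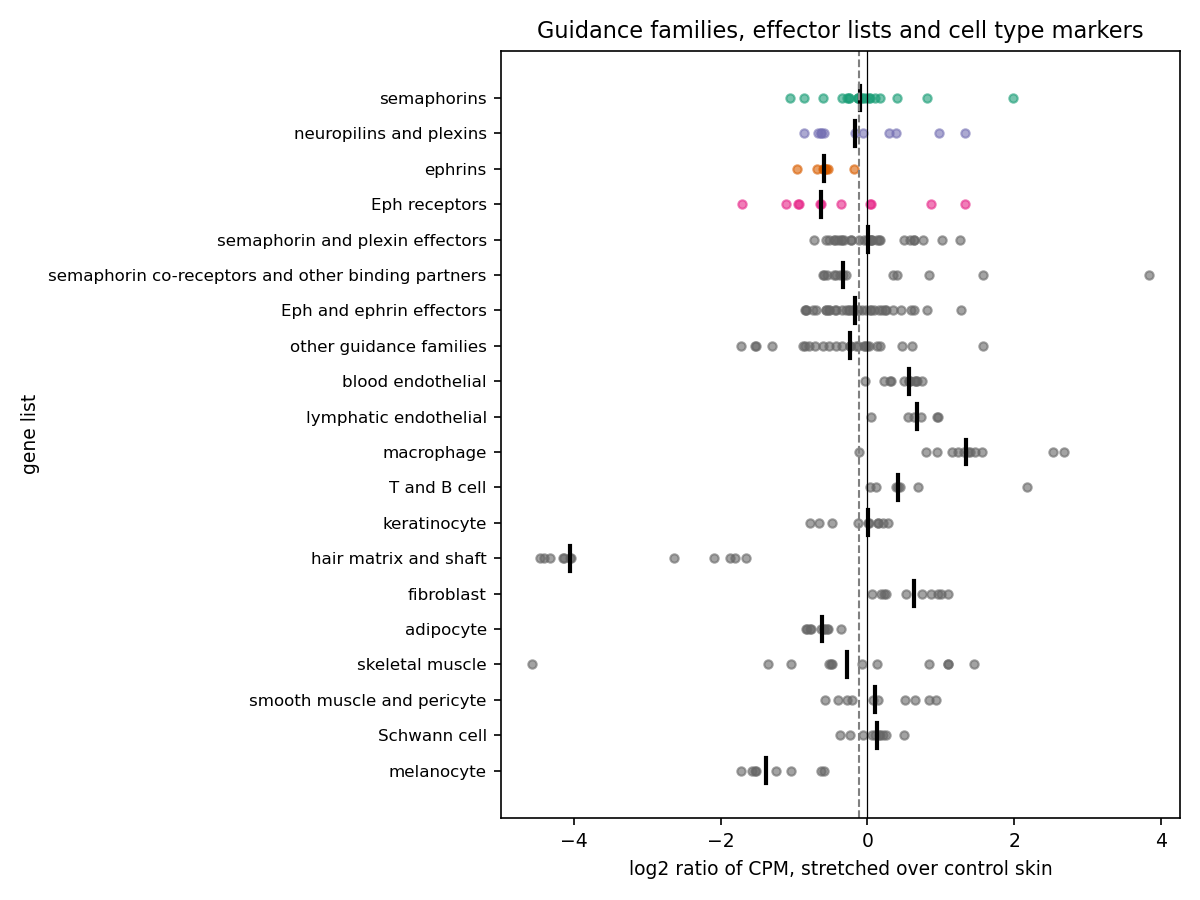
Log2 ratio of CPM, stretched over control skin (horizontal axis), of each gene (points) in the 4 guidance families, the effector and partner lists and the cell type marker lists (rows), with the median of each list as a black bar and the median of all genes as a dashed line. Ephrins and Eph receptors have medians of -0.59 and -0.63, hair matrix and shaft markers a median of -4.05, and macrophage markers a median of 1.34.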

How the data were processed

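RNA from whole-layer skin was sequenced as single-end reads after library preparation with a TruSeq kit that does not mark strand. The submitters' processing notes name mm10 and TopHat2, and the program that counted reads, with its annotation and strand setting, is not given in the sources used here. The authors deposited 1 table of raw counts per gene symbol, not normalized. Per the study's methods, their FPKM came from Cufflinks and was not used here.

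From the counts, CPM, FPKM (exon union lengths of GENCODE M21, matched for 98.5% of symbols) and the log2 ratio of CPM with its exact Clopper-Pearson interval were computed. For the ratio, counts under 3 were raised to 3. The filter on the product of FPKM values and the fold threshold follow the methods, with 1 added to each FPKM. The code for the intervals was run on simulated independent counts. These hold no duplicate reads or variation between animals, so the run checks the arithmetic only. Members and lists were chosen with earlier results of these data known, and the minimum of 100 counts was chosen after seeing the data. Named members had at least 50 counts, an interval that excluded 0 and a log2 ratio of 0.5 or more in size, were at the floor in 1 library, led their subfamily, or shared a ligand and receptor set or cluster with such a gene. Other members were named after their values were seen. Of the effector lists, the 2 highest and 2 lowest genes among those with at least 100 counts were named. Promoter windows are from RefSeq (GRCm38.p6).

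Of the members, 13 share exonic bases with another gene, at most 14.1% (Efna3), and 36 share no stretch of 76 bases. Alternatives were scaling by TMM, median of ratios, upper quartile or library totals that leave out the 50 most counted genes, a minimum of 20 or 100 counts, 1 CPM added to both values, a pseudocount of 0.1, no filter or a product above 100, CPM in place of FPKM, and the length of the longest transcript. Python 3.11.15, numpy 2.4.6, pandas 2.3.3, scipy 1.17.1, matplotlib 3.10.9 and R 4.3.3 were used, with edgeR 4.0.16 and DESeq2 1.42.0 for scaling factors only.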

Additional observations from a re-analysis of the deposited data

How the results depend on the processing

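No paired analysis was possible because each condition has a single library, and for the same reason no library could be left out. Scaling adds 1 shift to every log2 ratio. The members' median of -0.25 became -0.15 with TMM, -0.14 with the median of ratios and -0.15 with the upper quartile, and the median of all genes then lay at -0.017, -0.0091 and -0.018. Intervals below 0 numbered 21 to 28 over the scalings and minimum counts, and those above 0 numbered 7 to 10. Under TMM and the median of ratios, Sema3d, Sema3f, Sema6c, Sema7a and Efna1 no longer lay below 0, and neither did Plxnb2 and Efnb3 under the median of ratios, while Sema4a and Ephb4 lay above 0. Values near 0 changed sign under TMM and the median of ratios, to 0.085 and 0.092 for Sema3c, 0.047 and 0.055 for Sema3g, 0.030 and 0.038 for Sema5b, and 0.049 and 0.057 for Plxnc1. Where no member met the rule on level and fold, CPM in place of FPKM gave 3 upregulated (Sema4f, Plxna4 and Epha3) and 3 downregulated members (Sema4g, Epha4 and Ephb1), beside 3.36% and 3.27% of the 13513 genes then left by the filter. CPM exceeded FPKM for every protein-coding member, so the added 1 weighed less beside it. With FPKM the filter left 10908 genes. A pseudocount of 0.1 gave 2 downregulated members. Members under 50 counts limit precision, as the interval of Epha7 shows.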

Other observations

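Other guidance families outside the semaphorin and ephrin systems were also measured. Of 28 Slits, netrins and their receptors and relatives, 25 were above the floor. Of these, 10 intervals (40%) lay below 0 and 4 (16%) above, against 33.5% and 18.1% of all genes. Their median log2 ratio was -0.24, beside -0.25 for the members and -0.12 for all genes. The lower quartile was -0.80, beside -0.63 for the members and -0.38 for all genes. Robo1, a Slit receptor, had 1220 counts in control and 348 in stretched skin (-1.53, interval -1.70 to -1.36), and Unc5b, a netrin receptor, had 2106 and 607 (-1.51, interval -1.65 to -1.38). Both were downregulated by the rule on level and fold. They were 2 of the 12 genes of this list left by its filter, against 2.43% of 10908 genes. Flrt1 had 76 and 19 counts (-1.72, interval -2.53 to -0.98), Flrt3 had 1186 and 532 (-0.88, interval -1.03 to -0.73), and Neo1, a receptor of netrins and repulsive guidance molecules, had 2187 and 1032 (-0.80, interval -0.91 to -0.70). The ligand Slit2 was higher, with 497 and 622 counts (0.60, interval 0.43 to 0.78), and so was its receptor Robo2, with 200 and 229 (0.48, interval 0.20 to 0.76). Ntn1 had 1506 and 1398 counts (0.17, interval 0.067 to 0.28). Dscam, Robo3 and Unc5d had 3 counts or fewer in both libraries. These genes were named after their values were seen.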
